A study of Homo sapiens with 12 samples.

Results

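To see which mRNAs differed in Argonaute 2 (AGO2) precipitates when miR-143 was present, the AGO2 precipitate of K562 cells with a miR-143 vector (miR143_AGO) was compared with that of cells with a control vector (control_AGO). The comparison used rows that reached at least 10 FPKM (fragments counted on a transcript, corrected for its length and for library size) in at least 1 of the 2 groups, which held for 3645 of 61782 rows. Of these, 2834 carried the name of 1 protein-coding gene and are called mRNAs here. Each group had 1 value per row, the authors' average over the group, so that no difference had a replicate check and nothing could be tested.

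K562 is a human erythroleukemia line, and the study's methods name a derivative with an inducible C/EBPα (K562-C/EBPα-ER). The cells were transduced with the lentiviral vector pLV-miR-143 (mir-p114) or with its control (mir-p000), both from Biosettia, and both populations were kept in puromycin. The labels give 3 samples to each of 4 groups, control_AGO, miR143_AGO and the corresponding mock precipitates labelled IgG, control_IgG and miR143_IgG. The study describes its AGO2 precipitations as independent experiments. Whether the cells received β-estradiol, which activates the fusion protein, is not given in the sources used here.

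A microRNA (miRNA) guides Argonaute proteins to transcripts that pair with its seed, and the bound transcript is then translated less or degraded. An AGO2 precipitate therefore holds miRNAs, their targets and background RNA. A target can become more abundant in it because more of it is bound, or less abundant because less of it is left in the cell, and a precipitate without the input RNA cannot tell these apart.

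The vector encodes the miR-143 hairpin, whose main product is miR-143-3p (RefSeq, GRCh38.p14, chr5:149428978-149428998, plus strand). Its seed, bases 2 to 8, is in capitals, because the matches in mRNAs described below were searched with it:
hsa-miR-143-3p: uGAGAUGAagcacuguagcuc

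Matches were searched on the sense strand of 3′ UTRs (1 per gene, the longest annotated) as TCATCTC, which pairs with bases 2 to 8 (called an 8mer when an A follows, TCATCTCA), or as CATCTCA, which pairs with bases 2 to 7 and ends in A. The windows below are written 5′ to 3′ with the match in capitals (GENCODE 29, GRCh38, position of the match). They show the 3 mRNAs with the highest and the 3 with the lowest ratio among the named genes with a match, then the named genes with an 8mer, and each is a sequence match that these data do not test. All lie in the annotated 3′ UTR within 1 exon:
MAP4K1, higher in miR143_AGO (chr19:38587667-38587673, minus strand): atggcatgtccTCATCTCccaataaacat
LRCH3, higher (chr3:197885605-197885611, plus strand): aagcgaaattcCATCTCAaaaaaagaaaa
D2HGDH, higher (chr2:241768764-241768770, plus strand): agctggatgcaCATCTCAttctgtcatga
TRANK1, lower, the first of 2 matches (chr3:36827850-36827856, minus strand): tatggattcccTCATCTCctgccacactg
RIN3, lower (chr14:92688708-92688714, plus strand): ggtggacccagCATCTCAggagcacctca
MLXIPL, lower (chr7:73593789-73593795, minus strand): ggctccagggaTCATCTCtgggcactccc
BCL2L13, higher, the second of 3 matches (chr22:17730115-17730122, plus strand): gtccttagaccTCATCTCAactgctctgtt
PSG4, lower, the first of 2 matches (chr19:43192969-43192976, minus strand): tgtcagatatgTCATCTCAacctcaaactt
DUT, lower (chr15:48342774-48342781, plus strand): tcccttgaattTCATCTCAtcaggcaaatt
MAPK7, lower (chr17:19383351-19383358, plus strand): attctgcaggtTCATCTCAgacccaccttt

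The precipitates held the RNA of erythroid K562 cells. Of the K562 markers, GYPB stood at 387 FPKM in control_AGO and 572 FPKM in miR143_AGO, KLF1 at 281 and 289 FPKM and GATA1 at 73.2 and 62.3 FPKM, and EPOR, in a row joined with another gene, was the only one under 10 FPKM in both. T cell, B cell and stroma markers were at or under 0.714 FPKM in both AGO2 precipitates. Of the granulocyte markers, only ITGAM (10.7 and 13.04 FPKM) and PRTN3 (7.86 and 13.9 FPKM) reached 10 FPKM, while MPO, ELANE, S100A8 and S100A9 were listed at 0 in both. The row of MIR143, which checks the labels, was listed at 0 in control_AGO and stood at 118393 FPKM in miR143_AGO, 28.8% of the summed FPKM of that group. Fragment numbers are unknown. The lowest products of FPKM and transcript length, which scale with what 1 fragment is worth, were 1.10 times higher in control_AGO than in miR143_AGO, against 1.66 times in miR143_IgG and 13.7 times in control_IgG, so that the 2 AGO2 groups resolved low values about equally and control_IgG the least.

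Most mRNAs stood at a similar level in both precipitates, and more of the others were lower with miR-143 than higher. The median log2 ratio of miR143_AGO over control_AGO, computed as log2 of (FPKM + 1) over (FPKM + 1), was −0.01 over the 2834 mRNAs, with quartiles of −0.61 and 0.57. At least 2-fold higher were 298 mRNAs (10.5%) and at least 2-fold lower 446 (15.7%). At least 4-fold higher were 42 (1.48%) and at least 4-fold lower 141 (4.98%). Over all 3645 rows the same counts were 421 (11.6%) and 609 (16.7%) at 2-fold, and 80 (2.19%) and 229 (6.28%) at 4-fold. In these bulk precipitates, less of an RNA per cell and fewer cells with it cannot be told apart. In what follows, higher and lower without a number mean at least 2-fold higher or lower in miR143_AGO, as ratios of 2 averages.

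The excess of lower rows depended on the scale. When both groups were set to the same median, which multiplied miR143_AGO by 1.12, 563 rows were higher and 520 lower, so that the share of higher rows among those past 2-fold was 51.99% instead of 40.9%. The 4-fold counts kept the lower rows ahead, with 91 higher and 201 lower.

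The same 2 counts were made in the mock precipitates, where no minimum FPKM was required. Of the 2834 mRNAs, 206 were listed at 0 in control_IgG and 33 in miR143_IgG. Between miR143_IgG and control_IgG, 609 of the same mRNAs (21.5%) were higher and 625 (22.1%) lower, and of all 3645 rows 801 (22%) and 780 (21.4%). The AGO2 pair thus held fewer mRNAs past 2-fold than the mock pair, in which control_IgG had the least resolution of low values. Because the filter of 10 FPKM was set on the AGO2 groups only, the 2 pairs are not compared at the same threshold. Across the 2834 mRNAs, the log2 ratio in the AGO2 pair and that in the mock pair were nearly unrelated, with a Spearman's rho of 0.016 across genes. The 2 AGO2 precipitates followed each other with a Pearson's r of 0.725 on the log2 scale, and of 0.848 over the 1885 mRNAs with 10 FPKM or more in both, where genes are not replicates.

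**Figure D1:**
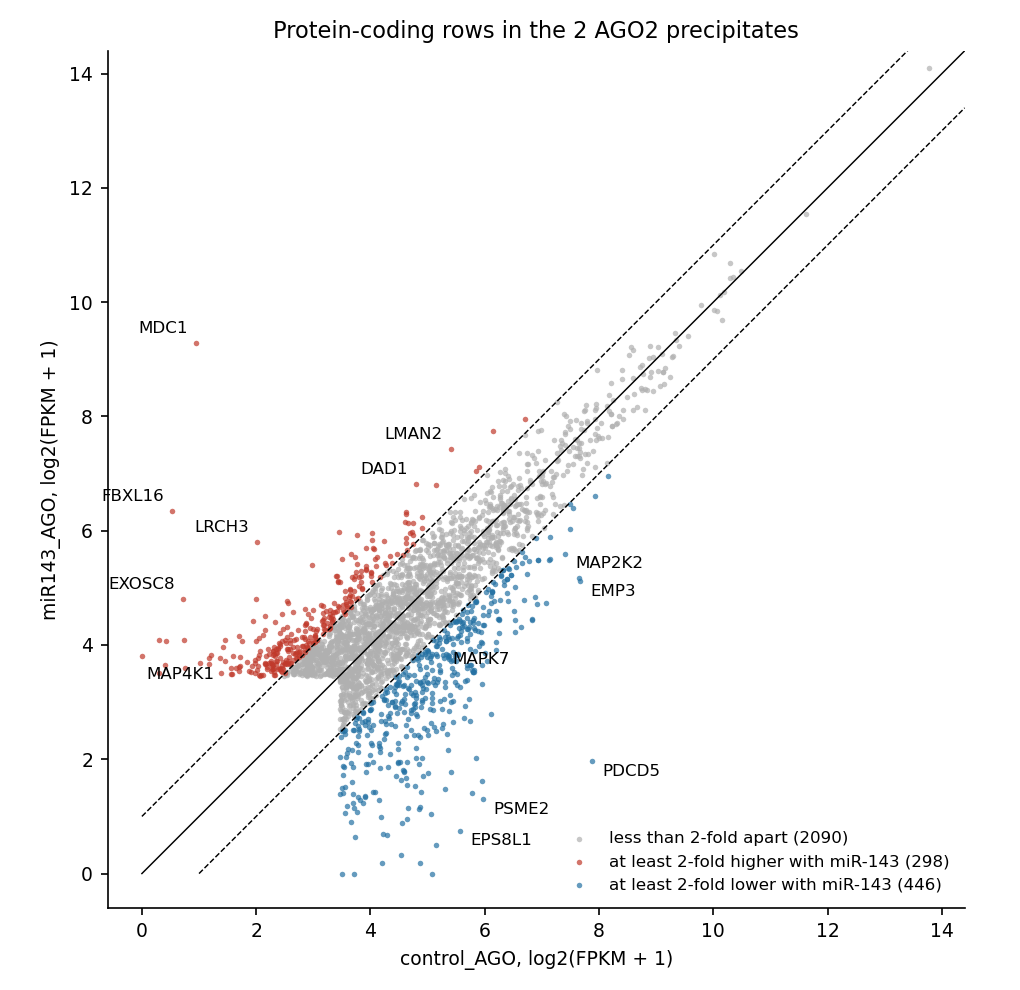
Each point is 1 of 2834 protein-coding rows, with control_AGO on the x axis and miR143_AGO on the y axis, both as log2(FPKM + 1). The solid line marks equal values and the dashed lines 2-fold differences: the most abundant mRNAs lie close to the solid line, 298 (red) lie above and 446 (blue) below the dashed lines, and the empty lower left corner is the filter of 10 FPKM.

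Large differences were less frequent among abundant mRNAs. Of 1019 mRNAs with a mean of 10 to 20 FPKM over the 2 groups, 24.4% differed at least 2-fold in one direction or the other, and of 886 with 20 to 50 FPKM, 27.2% did. The share was 15.9% of 301 mRNAs at 50 to 100 FPKM, 10.6% of 104 at 100 to 200 FPKM and 2.04% of 98 at 200 FPKM or more. From 10 FPKM up to 200 FPKM lower mRNAs outnumbered higher ones, with 177 against 64 at 20 to 50 FPKM and 41 against 7 at 50 to 100 FPKM. Among the 426 mRNAs with a mean of 5 to 10 FPKM (45.3% past 2-fold), the order was reversed, with 121 higher and 72 lower. These mRNAs entered through the group in which they were higher and therefore had to differ. Many differences arose where 1 of the groups was under 10 FPKM. This held for 216 of the 298 higher mRNAs and 251 of the 446 lower ones, and among the 1885 mRNAs with 10 FPKM or more in both groups 82 were higher and 195 lower, 4 and 26 of them at least 4-fold.

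**Figure D2:**
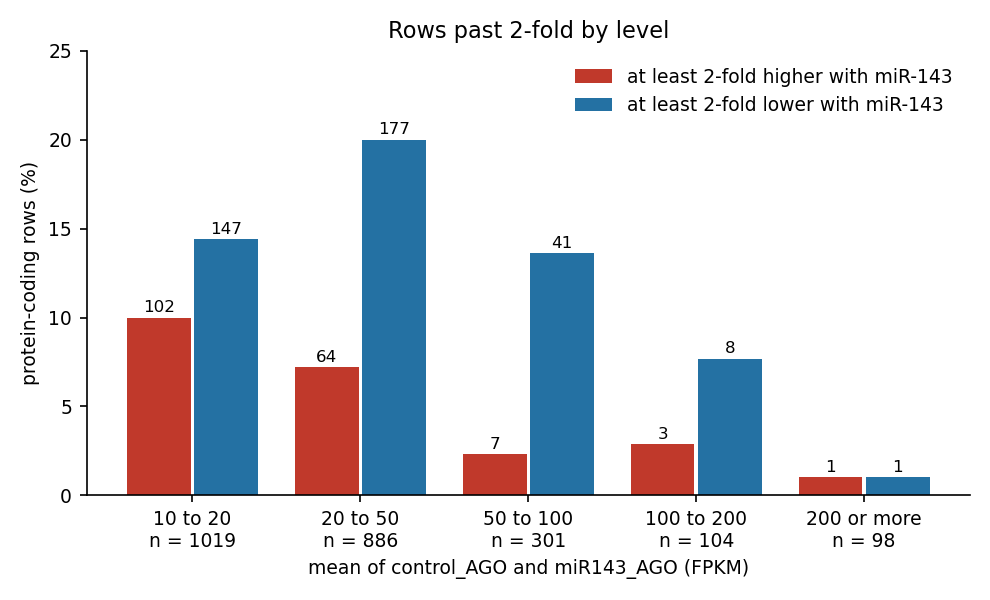
Share of protein-coding rows (y axis, %) that were at least 2-fold higher (red) or lower (blue) with miR-143, by the mean FPKM of the 2 AGO2 groups (x axis). The numbers on the bars count rows: in the highest bin, 200 FPKM or more, 1 row was higher and 1 lower. Rows with a mean of 5 to 10 FPKM are left out.

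Only 13 mRNAs with a mean of 100 FPKM or more were past 2-fold, 4 higher and 9 lower, and they are named here after their values had been seen. The higher ones were MDC1, LMAN2, GBGT1 and ASNA1. ASNA1, which inserts tail-anchored proteins into the endoplasmic reticulum, stood at 103 and 248 FPKM in control_AGO and miR143_AGO, and GBGT1, a glycosyltransferase of the Forssman antigen, at 69.5 and 213 FPKM. The lower ones were PDCD5, EMP3, DCXR, MAP2K2, MYO19, STK25, STARD3, FAM102A and CAPN15. MAP2K2, the kinase MEK2 upstream of ERK1 and ERK2, went from 168 FPKM in control_AGO to 47.5 FPKM in miR143_AGO, and STK25, a kinase of the STE20 family, from 242 to 96.6 FPKM. MYO19, a myosin of mitochondria, was at 180 and 64.7 FPKM, and STARD3, a cholesterol-binding protein of late endosomes, at 283 and 123.4 FPKM.

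The mRNAs lowest with miR-143 belonged to no single function. PDCD5, a protein linked to programmed cell death, had 233.6 FPKM in control_AGO and 2.89 FPKM in miR143_AGO, a log2 ratio of −5.91, and 0 and 33.97 FPKM in control_IgG and miR143_IgG. The mock pair thus differed the other way. PSME2, a subunit of the PA28 activator of the proteasome, was at 61.4 and 1.46 FPKM (log2 ratio −4.67), and its mock values of 22.3 and 113 FPKM were also higher with miR-143 rather than lower. INIP, a subunit of a complex on single-stranded DNA, had 53.6 and 1.66 FPKM (−4.36) and was under 1 FPKM in both mock precipitates. LITAF, a membrane protein of late endosomes, had 56.6 and 3.05 FPKM (−3.83).

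Of the other mRNAs among the 15 lowest ratios, CCDC64 (32.7 FPKM in control_AGO) and PSG4, a pregnancy-specific glycoprotein (12.1 FPKM), were listed at 0 in miR143_AGO. EPS8L1, an adaptor of actin signalling, had 46.5 and 0.683 FPKM. SPINT1, an inhibitor of serine proteases at the cell surface, had 28.1 and 0.134 FPKM. FAM83H-AS1, an older name that the reference now assigns to a coding gene and that occurs more than once in the tables, stood at 34.4 and 0.414 FPKM. The remaining 6 were TRANK1 (60.6 and 2.07 FPKM), the angiogenic factor AGGF1 (22.2 and 0.248 FPKM), the basic helix-loop-helix factor TCF24 (17.4 and 0.138 FPKM), the RAB5 exchange factor RIN3 (32.3 and 1.07 FPKM), the glucose-responsive transcription factor MLXIPL (38.7 and 1.802 FPKM) and the matrix protein SPARC (27.8 and 1.18 FPKM). PDCD5, CCDC64, EPS8L1, SPINT1, FAM83H-AS1, TCF24, RIN3, MLXIPL and PSG4 were listed at 0 in control_IgG, the group that resolved low values least.

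The 10 lowest mRNAs with 10 FPKM or more in both groups were between 5.14 and 6.004 times lower by plain ratio. EMP3, a small membrane glycoprotein, had 203 FPKM in control_AGO and 33.8 FPKM in miR143_AGO, and DCXR, a reductase of dicarbonyls and L-xylulose, 200 and 34.9 FPKM. SLC6A8, the creatine transporter, had 113 and 20.8 FPKM. TESC, a calcium-binding protein, had 113 and 20.9 FPKM. All 4 were abundant in control_AGO and under 40 FPKM in miR143_AGO. ZBTB48, a zinc finger protein of telomeres, had 134 and 25.6 FPKM and WBP2, a coactivator with WW-domain partners, 64.7 and 12.1 FPKM. ATP5D, the delta subunit of ATP synthase, had 98.0 and 18.9 FPKM, LPIN1, a phosphatidate phosphatase of lipid synthesis, 61.1 and 11.6 FPKM, MRPS2, a mitochondrial ribosomal protein, 91.6 and 17.8 FPKM, and CACUL1, a CDK2-associated protein with 4 seed matches in its 3′ UTR of 9717 bases, 72.4 and 14.1 FPKM.

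**Figure D3:**
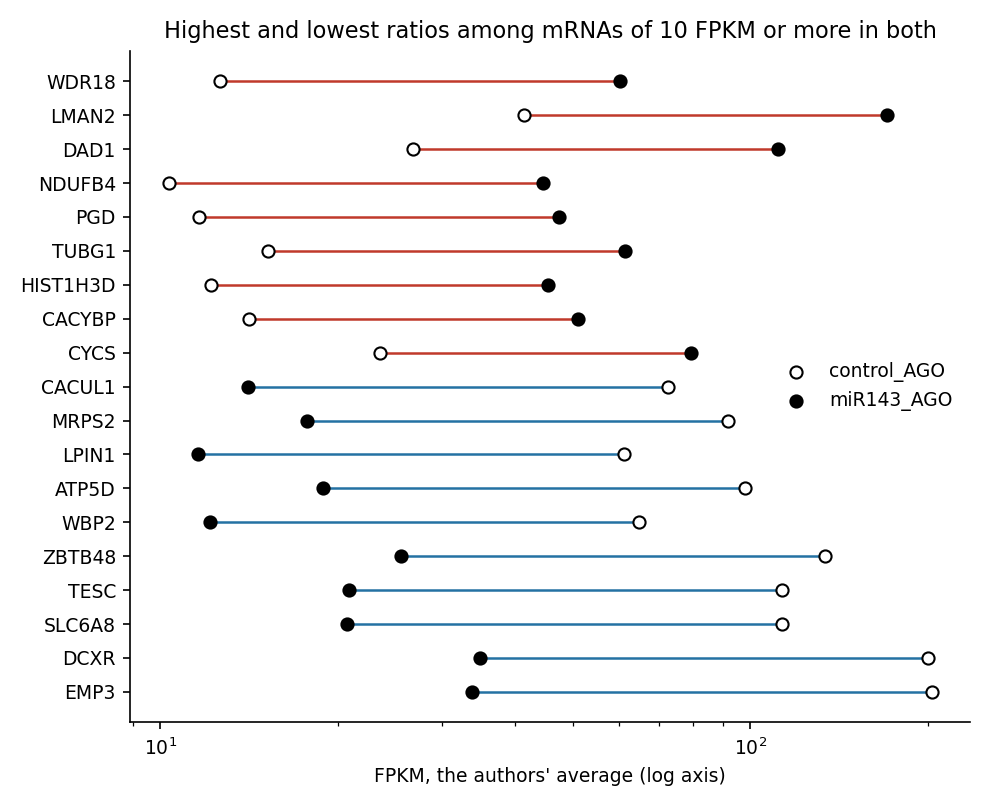
The mRNAs with the highest and the lowest ratios among those with 10 FPKM or more in both AGO2 precipitates (1 of the 10 highest is left out), with the authors' average FPKM on a log axis. Open circles are control_AGO and filled circles miR143_AGO: the red lines (higher with miR-143) run from 10.3 up to 171 FPKM and the blue lines (lower) from 203 down to 11.6 FPKM.

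The mRNAs highest with miR-143 were mostly those near 0 in control_AGO. MDC1, a mediator of the DNA damage checkpoint, had 0.925 FPKM in control_AGO and 623 FPKM in miR143_AGO, the highest log2 ratio of an mRNA (8.34). The mock pair went the other way and further, with 4451 FPKM in control_IgG and 7.53 FPKM in miR143_IgG, so that this row was high in 1 precipitate of each cell population. Its name occurs more than once in the tables, and reads can be split between such rows. FBXL16, an F-box protein, had 0.442 and 80.3 FPKM (5.82) and was listed at 0 in both mock precipitates. EXOSC8, a subunit of the RNA exosome, had 0.654 and 26.9 FPKM (4.08), and LRCH3, a protein with leucine-rich repeats, 3.05 and 54.7 FPKM (3.78). MAP4K1, a hematopoietic kinase upstream of JNK, was listed at 0 in control_AGO and had 13.04 FPKM in miR143_AGO.

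The other 10 of the 15 highest mRNAs had between 10.3 FPKM (TMEM39A) and 26.9 FPKM (AMZ2) in miR143_AGO and at most 3.01 FPKM in control_AGO. They included the calcium-dependent lipid-binding protein CPNE3 (0.232 and 16.1 FPKM), the microtubule-binding protein EML2 (0.345 and 15.7 FPKM) and the transcription elongation factor ELL2 (0.320 and 11.5 FPKM). A pair of mitochondrial enzymes was among them, D2HGDH, a dehydrogenase of D-2-hydroxyglutarate (0.665 and 15.9 FPKM), and ACAT1, a thiolase of ketone body metabolism (1.02 and 11.9 FPKM). CA11, a carbonic anhydrase-related protein, TTC14 and SYT5, a synaptotagmin, made up the rest.

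Among mRNAs with 10 FPKM or more in both groups, the 10 highest were between 3.36 and 4.76 times higher by plain ratio. LMAN2, a lectin that carries glycoproteins out of the endoplasmic reticulum, had 41.4 FPKM in control_AGO and 171 FPKM in miR143_AGO. DAD1, a subunit of oligosaccharyltransferase, had 26.8 and 111 FPKM. Of the mitochondrial proteins, CYCS, cytochrome c, had 23.6 and 79.4 FPKM and NDUFB4, a subunit of complex I, 10.3 and 44.5 FPKM. The ratio was highest for WDR18, a factor of ribosome biogenesis (12.6 and 60.1 FPKM). The others included PGD of the pentose phosphate pathway (11.6 and 47.5 FPKM), γ-tubulin TUBG1 (15.2 and 61.3 FPKM), the histone HIST1H3D (12.2 and 45.4 FPKM) and CACYBP, which binds calcyclin (14.1 and 51.1 FPKM).

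Functions of the higher and lower mRNAs were described with 40 lists of genes, given by their counts beside those over all mRNAs (10.5% higher, 15.7% lower, 49.6% above 0, median −0.01). In all, 93 of the 298 higher mRNAs (31.2%) and 110 of the 446 lower ones (24.7%) belonged to a list, against 732 of the 2090 others (35%), so that most mRNAs past 2-fold lay outside the functions looked at. Among the 36 lists of protein-coding genes, medians ran from −0.72 for the miRNA machinery to 0.51 for histones. Lower members outnumbered higher ones in 19 lists and higher ones outnumbered lower ones in 13, while the median lay above 0 in 22 lists, so that counts past 2-fold and medians leaned to different sides.

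**Figure D4:**
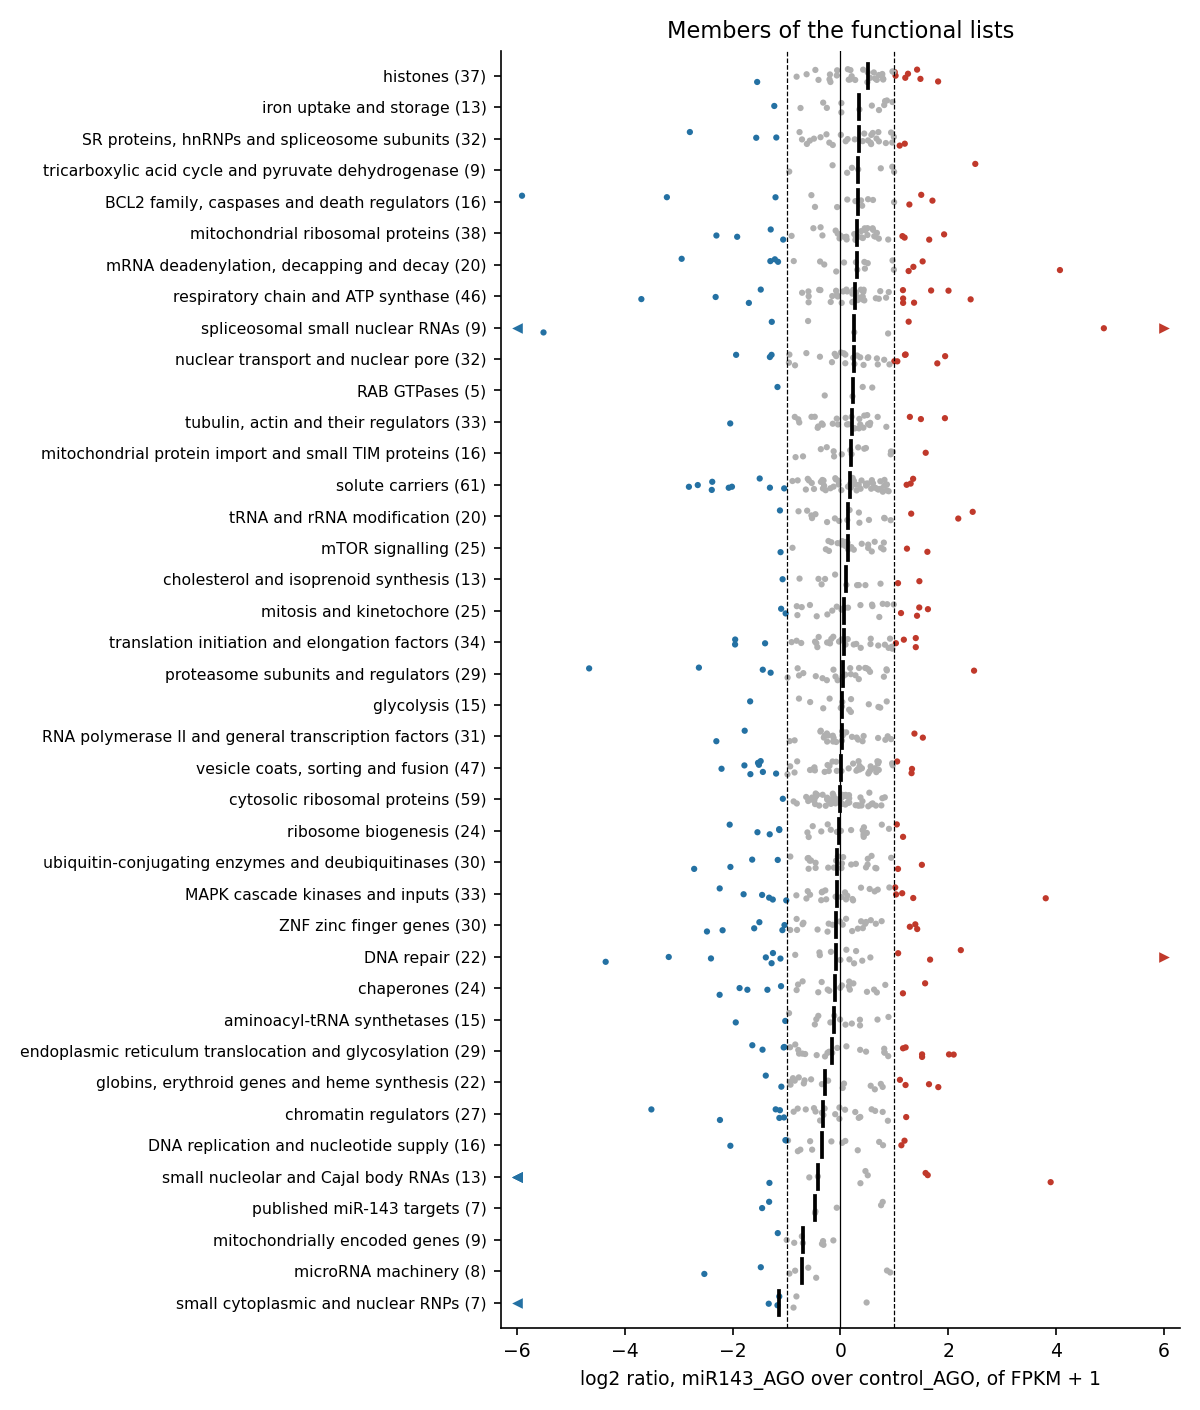
Log2 ratio of miR143_AGO over control_AGO (x axis) for each compared member of the 40 functional lists, with the number of members in brackets and the median as a black bar. Red points are at least 2-fold higher and blue points at least 2-fold lower, and triangles at the edge stand for 1 or more members beyond 6: medians lie between −1.14 and 0.51, and members past 2-fold occur on both sides in most lists.

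Cytosolic ribosomal proteins, the most abundant mRNAs of the precipitates, hardly differed. Of 59 members, none was higher and only RPS4X was lower (77.4 and 36.3 FPKM), the median log2 ratio was −0.01, and the median level was 213 FPKM in control_AGO and 219 FPKM in miR143_AGO. The highest member was RPL14 (55.0 and 98.0 FPKM). With both groups at the same upper quartile the median was 0.18. Translation factors spread to both sides, with 4 of 34 higher and 3 lower and a median of 0.06 that reached 0.25 in another setting. Lower were EEF2K, the kinase of elongation factor 2 (28.4 and 6.58 FPKM), the exchange factor subunit EIF2B5 (38.7 and 9.25 FPKM) and EIF2D (54.2 and 19.9 FPKM). Higher were EIF1AD, EEF2KMT, EIF4A3 of the exon junction complex (8.03 and 19.4 FPKM) and PABPC4, which binds poly(A) tails (12.8 and 27.2 FPKM). Of 15 aminoacyl-tRNA synthetases and their partners none was higher, and AIMP2 (55.9 and 13.8 FPKM) and GARS (117 and 57.2 FPKM) were lower.

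Several mitochondrial lists had medians above 0, as did 22 of the 36 lists of protein-coding genes. Lists of other functions had medians as high, such as iron genes (0.35) and splicing factors (0.34). Among 38 mitochondrial ribosomal proteins, 26 were above 0 and the median was 0.30. Higher were 4 (10.5%, the share over all mRNAs), among them MRPS34 (12.6 and 41.6 FPKM) and MRPL52 (28.9 and 65.5 FPKM). Lower were 4 (10.5%, against 15.7% of all mRNAs), with MRPL10 (89.8 and 23.02 FPKM) next to MRPS2. Of 46 nuclear-encoded subunits of the respiratory chain and ATP synthase, 31 were above 0 and 7 were higher, led by SDHA, the flavoprotein of complex II (6.90 and 41.2 FPKM), while 4 were lower, with NDUFA5 of complex I at 28.1 and 1.25 FPKM and ATP5D as the lowest. The tricarboxylic acid cycle list had 7 of 9 above 0, with PDHA1 of pyruvate dehydrogenase higher (1.25 and 11.7 FPKM), and of 16 members of mitochondrial protein import PHB, prohibitin, was higher (17.8 and 55.3 FPKM) and none lower. Over the 10 settings tried, the medians of these lists lay between 0.19 and 0.55. RNAs encoded by mitochondrial DNA itself went the other way, since all 9 were below 0 with a median of −0.70, from MT-ND3 (105 and 95.5 FPKM) to the ribosomal RNA MT-RNR2 (9670.4 and 4316 FPKM).

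Histone mRNAs, which for the replication-dependent genes end in a stem-loop instead of a poly(A) tail, had the highest median of all lists. Of 37 members, 27 were above 0 and the median was 0.51. Higher were HIST1H3D, HIST1H2AB (12.2 and 35.9 FPKM), HIST1H2BO (15.9 and 44.2 FPKM), H2AFY (24.97 and 60.9 FPKM), HIST3H2A, H2AFZ and HIST1H4B, and only HIST2H2AB was lower (52.7 and 17.4 FPKM). Chromatin regulators had a median of −0.32. Of 27 members 6 were lower. The lowest was RBBP6 (24.1 and 1.204 FPKM), a ubiquitin ligase that the list holds. The histone demethylase KDM4B (33.2 and 6.26 FPKM) came next, followed by the deacetylase SIRT6, SMARCD1 of the BAF complex, the dioxygenase TET3 and the methyltransferase SETD6. The acetyltransferase KAT5 was higher (5.23 and 13.5 FPKM).

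Genes of genome duplication and repair were spread widely. Of 22 DNA repair genes, 4 were higher and 7 lower, which held both the highest mRNA of the comparison, MDC1, and INIP. Others named after their values had been seen were XRCC5, the Ku80 subunit of end joining (4.79 and 26.2 FPKM), FANCA of the Fanconi anemia pathway (23.7 and 77.2 FPKM) and the damage kinase ATM (17.2 and 0.997 FPKM). The replication list had a median of −0.35, which was 0.09 at its highest over the settings, with the dUTPase DUT (75.4 and 17.5 FPKM), RRM1, the large subunit of ribonucleotide reductase (99.5 and 48.5 FPKM), and the polymerase subunit POLD2 (78.5 and 38.5 FPKM) lower. RRM2, the small subunit of the same enzyme, was higher (7.12 and 16.8 FPKM), as was the helicase subunit MCM4 (18.05 and 42.4 FPKM). Of 25 mitotic genes, ANAPC1 and ANAPC5 of the anaphase-promoting complex, the kinase AURKB (16.3 and 45.3 FPKM) and securin PTTG1 were higher, and CENPM and CDCA3 lower.

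Among lists of RNA metabolism, the 20 genes of mRNA decay had 4 members on each side. Higher were EXOSC8, the decapping activator EDC3 (3.48 and 11.9 FPKM), PUM2, which binds 3′ UTRs (4.33 and 12.6 FPKM), and the exosome helicase SKIV2L, and lower were UPF3A (23.7 and 2.21 FPKM) and SMG9 of nonsense-mediated decay, the scavenger decapping enzyme DCPS (80.1 and 33.9 FPKM) and EXOSC10. Of 32 splicing factors, TRA2B (42.7 and 5.29 FPKM), HNRNPUL1 and PTBP1 were lower and SF3B4 and HNRNPC higher, with a median of 0.34 that was 0.01 when 20 FPKM was required in at least 1 group. Of 24 ribosome biogenesis factors, 5 were lower, WDR36, MRTO4, DDX49, GNL2 and PES1, and NIP7 and RRP7A were higher.

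The miRNA machinery had 8 compared members with a median of −0.72, none higher and 2 lower. AGO4, an Argonaute protein, had 13.1 FPKM in control_AGO and 1.45 FPKM in miR143_AGO, and GEMIN4, a protein of the SMN complex also found with Argonautes, 39.2 and 13.4 FPKM. XPO5 and TNRC6A are named after their values had been seen. XPO5, the exporter of miRNA precursors, had 167 and 86.0 FPKM, and the scaffold proteins TNRC6A and TNRC6B, which bind Argonautes, were at 35.8 and 25.9 FPKM and at 6.602 and 13.4 FPKM, so that the 2 paralogs lay on different sides of 0.

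Protein turnover and folding were represented on both sides. Of 29 proteasome genes, PSME2, PSMD11 (60.8 and 9.004 FPKM), PSMC4 and PSMD6 were lower, and the assembly chaperone PSMD5, with 2 seed matches, was higher (2.85 and 20.5 FPKM). Of 24 chaperones, 5 were lower, the mitochondrial DNAJA3 (55.1 and 10.8 FPKM) and HSPD1 (44.98 and 20.4 FPKM), HSPA1B, DNAJB1 and DNAJB2, while STIP1 and CCT2 were higher. Of 30 ubiquitin enzymes, UBE2S, which extends chains for the anaphase-promoting complex, was the lowest (49.2 and 6.64 FPKM), and COPS6 of the signalosome the highest (7.99 and 24.6 FPKM). The list of cell death regulators had PDCD5, BIRC2, an inhibitor of apoptosis (29.4 and 2.25 FPKM), and CASP9, the initiator caspase of the mitochondrial pathway (21.6 and 8.82 FPKM), on the lower side and CYCS, PDCD6IP and BCL2L13 (6.97 and 18.3 FPKM) on the higher.

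In lists of membranes and transport, 9 of 61 solute carriers were lower (14.8%, against 15.7% of all mRNAs) and 3 higher (4.92%, against 10.5%). They ran from SLC29A3, a nucleoside transporter of lysosomes (23.02 and 2.42 FPKM), to SLC25A44 (6.73 and 18.7 FPKM). The share of lower members was thus near that of all mRNAs, and the median of the list was 0.18. Of 47 genes of vesicle coats, sorting and fusion, 8 were lower (17%, also near the share of all mRNAs) and 3 higher (6.38%). VPS37C (53.8 and 10.9 FPKM) and CHMP2A (5.98 and 16.5 FPKM), both of ESCRT complexes, were the lowest and the highest. Of 29 genes of the endoplasmic reticulum 6 were higher, led by SRP68 of the signal recognition particle (3.47 and 18.2 FPKM) and DAD1, and 4 lower, with the mannosyltransferase ALG3 the lowest (138 and 43.9 FPKM). Of 32 genes of nuclear transport 6 were higher and 3 lower, from the pore protein NUP35 (1.93 and 10.3 FPKM) to the importin IPO9 (41.8 and 10.2 FPKM). The cytoskeleton list had 3 higher members, TUBG1, DCTN4 and CAPZA1, and DCTN2 of dynactin lower (117 and 27.5 FPKM). Of 5 RAB GTPases RAB5B was lower (92.1 and 40.4 FPKM).

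Signalling genes lay on both sides. Of 33 genes of MAPK cascades, 5 were higher and 6 lower, with MAP4K1 at one end and MAPK14, the p38α kinase, at the other (38.2 and 7.28 FPKM). MAPK7, which encodes ERK5, had 36.9 FPKM in control_AGO and 14.2 FPKM in miR143_AGO, a log2 ratio of −1.32. In control_IgG and miR143_IgG it had 6.69 and 0.0988 FPKM, so that the mock pair differed the same way and further (log2 ratio −2.81). The value in miR143_IgG is under 1 FPKM, and 22.1% of all mRNAs were at least 2-fold lower in the mock pair. The study reports ERK5 mRNA as enriched in AGO2 precipitates of miR-143 cells, against control cells and IgG, by sequencing and by semiquantitative PCR. It also reports a luciferase assay with a mutated site and protein blots, which these data do not address. Enrichment over the mock precipitates is not computed here, and the ratio given need not be the measure behind the study's sequencing result. Of 27 published miR-143 targets, 7 could be compared. None of these was higher, and besides MAPK7 the transcription factor ELK1, a substrate of ERK, was lower (15.6 and 5.05 FPKM). PLK1, a mitotic kinase (28.3 and 49.5 FPKM), was the highest of them. The median of this list was −0.46, and 0.15 when 20 FPKM was required in at least 1 group. Of 25 mTOR genes, MAPKAP1, the SIN1 subunit of mTORC2 (3.89 and 13.96 FPKM), and LAMTOR4 of the Ragulator complex (15.2 and 37.1 FPKM) were higher, and the mTORC1 inhibitor TSC1 was lower (18.4 and 7.996 FPKM).

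Erythroid genes had members on both sides and a median of −0.29. Of 22 erythroid genes 4 were higher, among them the heme synthesis enzymes ALAD (6.47 and 22.3 FPKM) and PPOX (3.97 and 10.5 FPKM) and the transcription factor NFE2 (9.004 and 20.5 FPKM), and the α-globin HBA2 (70.6 and 26.4 FPKM) and EPB41 of the membrane skeleton were lower. The nearly identical paralog HBA1, named after its values had been seen, lay on the other side (74.2 and 116 FPKM), as did the joined row of HBG1, HBG2 and HBE1 (321 and 523 FPKM), and reads can be split between such paralogs. Of 13 iron genes, transferrin receptor TFR2 was lower (86.8 and 36.5 FPKM) and none was higher, but 9 were above 0 and the median was 0.35. The ferritin light chain FTL, named after its values had been seen, had 1037 and 1843 FPKM. Of 15 glycolytic genes, PFKFB3, which makes the activator of phosphofructokinase, was lower (43.9 and 13.03 FPKM) and LDHA had the highest ratio (6.02 and 11.7 FPKM). Among 13 cholesterol genes 2 were higher, among them the sterol reductase DHCR7 (19.7 and 42.4 FPKM), and the transcription factor SREBF2 was lower (55.6 and 25.9 FPKM). RNA polymerase II genes held ELL and MED13L on the lower and POLR2J and MED18 on the higher side, tRNA and rRNA modification genes TRMT1, METTL5 and METTL13 on the higher and DUS1L on the lower, and ZNF genes 3 higher and 6 lower, with ZNF282 and ZNF292 at the ends.

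Non-coding rows were further apart than mRNAs. Of 158 annotated rows of 1 non-coding gene, 14.6% were higher and 27.2% lower. The standard deviation across rows was 2.81 on the log2 scale against 1.06 for mRNAs, but these rows include MIR143 with a log2 ratio of 16.9, which widens it. The quartiles were −1.25 and 0.60, against −0.61 and 0.57 for mRNAs. Of 7 small RNAs of cytoplasmic and nuclear ribonucleoproteins, 4 were lower and none higher, RN7SK, RMRP, RPPH1 and RNY1. The transcription regulator RN7SK had 23862 FPKM in control_AGO and 10609 FPKM in miR143_AGO, RMRP 3179 and 1263 FPKM, and the RNase P RNA RPPH1 979 and 445 FPKM. The telomerase RNA TERC had the highest ratio of this list (14.2 and 20.2 FPKM). Spliceosomal small nuclear RNAs lay on both sides, with 3 of 9 rows higher, 3 lower and a median of 0.26. RNU4-1 was lower (38363 and 15853 FPKM), and of 3 rows named U1 2 were higher, the more abundant of them with 450.2 and 1084 FPKM. Of 13 small nucleolar and Cajal body RNAs 5 were lower and 3 higher. The higher ones were SNORA74B (0 and 13.96 FPKM), SNORA73B (43.8 and 133 FPKM) and SCARNA13 (8.15 and 27.1 FPKM). RNY1 (362 FPKM in control_AGO), RNU5E-1 (429 FPKM) and the small nucleolar SNORA74 and SNORA76A (282 and 256 FPKM) were listed at 0 in miR143_AGO. In miR143_IgG, however, RNU5E-1 stood at 12356 FPKM and RNY1 at 9402 FPKM. CTD-2547E10.5, at 2855 FPKM in control_AGO, was listed at 0 in the 3 other groups. At the other end, AL021807.1, AL139288.1, RP11-478C6.4 and AC022098.2 were listed at 0 in control_AGO and stood between 155 and 357 FPKM in miR143_AGO, and the first 3 of them reached at least 848 FPKM in miR143_IgG. FPKM of RNAs this short depends strongly on the length correction, and the names U1 and SNORA74 occur more than once, so that such values are uncertain.

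A similar share of higher and of lower mRNAs held a seed match, without correction for the length searched. The median 3′ UTR was 847 bases for higher and 1243 bases for lower mRNAs, and matches per base were not compared. A match of 7 or 8 bases was present in 62 of 294 higher mRNAs with an annotated 3′ UTR (21.1%), in 88 of 445 lower ones (19.8%) and in 419 of 2073 others (20.2%), where 20.2% of all 2812 hold one. An 8mer was present in 4.08% of higher, 3.37% of lower and 3.81% of the other mRNAs. The median log2 ratio was −0.02 for 2243 mRNAs without a match, 0.03 for 569 with a match and 0.12 for 106 with an 8mer, and 11.3% of the latter were higher and 14.2% lower. Whether the annotated 3′ UTR is the one used in these cells was not tested.

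Other features set lower mRNAs apart. The median transcript length was 3269 bases for lower, 2633 for higher and 2722 for other mRNAs, and the 3′ UTR 1243, 847 and 940 bases. In 5 equal groups by transcript length, 8.11% of the shortest and 19.4% of the longest were lower, while the share of higher mRNAs stayed between 9.17% and 11.6%. Many lower mRNAs had entered through control_AGO alone. With 10 FPKM or more in both groups the median length was 2958 bases for lower, 2349 for higher and 2610 for all such mRNAs. Higher mRNAs had the lower GC content, with a median of 52.1% against 55.5% for lower and 55.6% for other mRNAs, and among the 5 groups by GC content the share of higher mRNAs went from 14.6% in the most AT-rich to 7.05% in the most GC-rich. Most higher mRNAs had entered through miR143_AGO alone, and with 10 FPKM or more in both groups the gap was small, with a median of 55.5% for higher against 56.04% for all such mRNAs. Lower mRNAs were also scarcer in the mock precipitates, with medians of 9.92 FPKM in control_IgG and 7.64 FPKM in miR143_IgG against 21.2 and 19.6 FPKM for mRNAs less than 2-fold apart. With 10 FPKM or more in both groups the gap was smaller, with 19.6 and 18.6 FPKM for lower against 26.5 and 23.6 FPKM for all such mRNAs. In 5 equal groups by mock level, 26.3% of the scarcest and 6.53% of the most abundant were lower, against 12.2% and 7.23% higher. Across the 2834 mRNAs, Spearman's rho with the log2 ratio was small, −0.10 for transcript length, −0.09 for GC content and 0.12 for mock level. How these features relate to each other was not examined, and their part in the ratios was not tested.

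**Figure D5:**
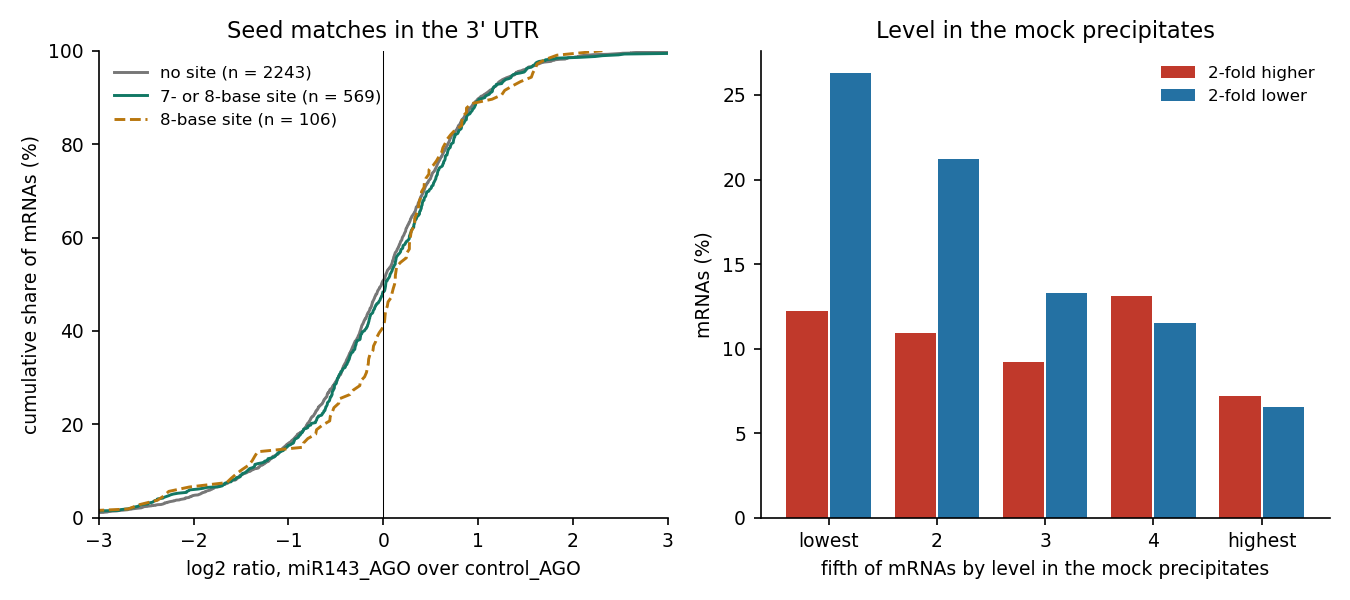
Left, cumulative share of mRNAs (y axis, %) against the log2 ratio of miR143_AGO over control_AGO (x axis) for 2243 mRNAs without a seed match, 569 with a match of 7 or 8 bases and 106 with an 8mer: the curves run close to each other, with the 8mers to the right in the middle. Right, share of mRNAs at least 2-fold higher (red) or lower (blue) in 5 equal groups by the mean log2 level in the mock precipitates, where the share of lower mRNAs goes from 26.3% to 6.53%.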

How the data were processed

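The authors deposited 1 table per group with the average FPKM of the group. TopHat, Cufflinks and hg38 are named in the submitters' processing notes, while tool versions and the annotation are not given in the sources used here. Methods and labels differ on the library kit (TruSeq against rRNA removal with random priming). Rows were joined by row order after the names of all 4 tables had been found identical. The log2 ratio was computed with a pseudocount of 1 FPKM, which understates the difference of low rows, over rows of 10 FPKM or more in at least 1 AGO2 group.

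Genes were matched by symbol to GENCODE 29 (GRCh38), 90 of the compared rows through older names in RefSeq. A further 495 rows joined several genes and 158 matched no gene or more than 1, and they enter the counts over all rows and, for single names, the lists of small RNAs. Resolution of low values was compared by the 10th lowest product of FPKM and transcript length above 0 among genes of 1 transcript. This was read from group averages and gives no fragment counts.

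Members and gene lists were chosen with earlier results of these data known. Lists hold single-name rows, so that cytosolic ribosomal proteins had 20 further rows joined with other genes. Genes named are the 15 highest and 15 lowest mRNAs, the 10 highest and 10 lowest with 10 FPKM or more in both groups, each list's extremes and, up to 8, its members past 2-fold, the 5 highest and 5 lowest single-name rows that are not coding, MIR143 and MAPK7. A pair of the genes this rule names is not reported here. Genes outside this rule are named as chosen after their values had been seen. Of the mRNAs just inside the filter, SLC38A1 (10.0 FPKM in control_AGO) had a log2 ratio of −2.07, and of those just outside, ARFGEF2 (10.0 FPKM in miR143_AGO, rounded) one of 1.27. Scripts ran in Python 3.11.15 with pandas 2.3.3 and were tested on simulated data.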

Additional observations from a re-analysis of the deposited data

Results flagged for a closer look

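MIR143 was also high outside the comparison, with 44781 FPKM in miR143_IgG, while it was listed at 0 in control_IgG. It is given here because this signal lies in a mock precipitate and above the level in the control cells. The part of unspecific binding in it was not tested.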

How the results depend on the processing

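No paired analysis was possible because the tables hold 1 average per group, and for the same reason no replicate could be left out in turn. A total of 10 settings were tried. Requiring 10 FPKM in both groups lowered the counts most, to 113 rows 2-fold higher, 248 lower, 8 rows 4-fold higher and 35 lower, and to 104 list members past 2-fold. The share of lower mRNAs with a seed match was then 15.5%, against 17.7% of higher ones and 18.3% of all. With 20 FPKM in at least 1 group, 184 rows were 2-fold and 34 rows 4-fold higher, and the median over all rows was −0.14. With 5 FPKM, 785 rows were 2-fold and 149 rows 4-fold higher, against 819 and 300 lower. Fewer rows enter under stricter filters by construction, and the cause of the shift between higher and lower rows was not tested. Scaling to the same median or upper quartile moved the median over all rows from 0.01 to 0.17 and 0.20. At the same upper quartile 609 rows were higher and 500 lower, 54.9% of those past 2-fold being higher. Pseudocount, plain ratio, scaling by the coding sum, summed names and single names kept every count within 1.5 times. No named gene past 2-fold changed direction in any setting, but this is no check of the directions, because the settings could hardly reverse them. Filters only remove rows, a pseudocount cannot change a sign, and scaling multiplied miR143_AGO by at most 1.15. Of 1930 values of named genes, 44 came to lie under 2-fold and 15 came to lie above it. The list medians of the histones (0.50 to 0.70) and of the miRNA machinery (−0.79 to −0.45) kept their sign, while those of the published targets, of replication and of cytosolic ribosomal proteins changed it in at least 1 setting. The number of fragments behind a value is unknown, and the precision of each ratio with it.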
